A study of Homo sapiens with 24 samples.

Results

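The STAT genes encode transcription factors that carry cytokine and growth factor signals from the cell surface to the nucleus. The genes described here are STAT2, STAT3, STAT4, STAT5A, STAT5B and STAT6, chosen by symbol as 6 of the 28307 genes in the count table. A cytokine binds its receptor, Janus kinases on the receptor phosphorylate a STAT protein, and paired STAT proteins enter the nucleus and bind DNA, in many target genes at the palindrome TTCNNNGAA. Nifuroxazide (NIF), the drug of this study, is a nitrofuran antibiotic that is used as a STAT3 inhibitor. RNA counts measure neither STAT protein nor its phosphorylation.

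RNA was sequenced from the breast cancer line SUM159 and the colon cancer line SW620, each grown as 1 line in adherent culture and treated for 30 h with NIF or with the vehicle DMSO. After treatment the cells were sorted by aldehyde dehydrogenase (ALDH) activity into a bright fraction, ALDHbr, labelled as cancer stem cells, and a negative fraction, ALDHneg. A group therefore holds the cells found in that gate at the end of treatment. Each line gave 4 groups (ALDHbr or ALDHneg, NIF or DMSO) of 3 libraries from independent experiments, 24 libraries in 8 groups, and no genetic change separates the groups of a line. In these bulk samples, fewer cells of a kind and less RNA per cell cannot be told apart.

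Total counts ran from 30253187 to 43127948 per library (median 36520935). The mesenchymal markers VIM and FN1 led a list of 10 in SUM159, of which 9 had a mean of at least 1 CPM (a read count scaled to the library's total), and 8 of 10 colon epithelial markers reached that level in SW620 against 0 of 10 in SUM159. The colon markers together ran from 0.174 to 6.37 CPM over the libraries of the SUM159 ALDHbr DMSO group. They reached at most 0.578 in the other SUM159 groups, and the cause was not tested. ALDH1A1, an enzyme behind ALDH activity, averaged 127 ± 25.9 CPM (SD, n = 3) in SUM159 ALDHbr cells under DMSO and 0.450 ± 0.0554 in ALDHneg cells. In SW620 the same means were 1397 ± 50.3 and 956 ± 18.3 CPM, so the sorted fractions of SW620 differed far less in this gene. Under NIF the ALDH1A1 means were 167 ± 43.8 and 0.393 ± 0.172 CPM in SUM159 and 1017 ± 33.1 and 586 ± 14.3 in SW620. The related gene ALDH1A3 went the other way in SW620 under DMSO, at 146 ± 6.17 CPM in ALDHbr and 188 ± 4.70 in ALDHneg cells (log2 difference -0.36, edgeR adjusted p = 7.23e-04). Among 12 immune cell markers, 0 averaged 1 CPM in SUM159 and 2 did in SW620 (LYZ at 1486 and CD14 at 4.62 CPM), while the pan-leukocyte marker PTPRC stayed at or below 0.264 CPM in every library.

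The 6 genes sit on 3 chromosomes, given here from RefSeq on GRCh38.p14. STAT2 (chr12:56341597-56360107) and STAT6 (chr12:57095408-57111362) lie 735300 bases apart on the minus strand of chromosome 12. STAT5B (chr17:42199177-42288370, minus strand), STAT5A (chr17:42287439-42311943, plus strand) and STAT3 (chr17:42313324-42388442, minus strand) are neighbours on chromosome 17. STAT5B and STAT5A overlap by 932 bases on opposite strands, and 1380 bases separate STAT5A from STAT3. STAT4 (chr2:191029576-191151596, minus strand) stands alone on chromosome 2. The library kit keeps the strand, but whether counting used it is not given in the sources used here, so reads in the STAT5A and STAT5B overlap, and reads shared by these near-identical paralogs, are uncertain. STAT6 overlaps NAB2 by 69 bases.

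Promoter windows of the 6 genes, from 250 bases before to 50 after each start in the window set used, were searched on both strands. The letters sought were the STAT palindrome TTCNNNGAA, its variant with a longer spacer TTCNNNNGAA, favoured by STAT6, and GAAANNGAAA, the core of the interferon response element that STAT2 binds with IRF9. The set does not cover every start. The only windows of STAT5B (chr17:42276342-42276641) and STAT6 (chr12:57110240-57110539) lie inside the gene spans given above, so their outermost starts were not searched. Of 35116 windows of that length in the genome, 7.66%, 6.44% and 3.57% held a match. Over the 9 windows of the 6 genes (3 for STAT5A, 2 for STAT4), 1 match was found, the longer palindrome 229 bases before the first STAT5A start. It is shown because it is the only STAT-type match among the windows, with the match in capitals, at chr17:42287200-42287229 on the plus strand of GRCh38.p14.
STAT5A: ttttttttttTTCCTCTGAAgttaaaagaa
A match is a description of letters and not evidence of binding.

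STAT6 and STAT3 were by far the most abundant of the 6 transcripts in both lines, as CPM per kilobase (kb) of the reference transcript showed. Under DMSO, STAT6, the mediator of interleukin-4 and interleukin-13 signals, averaged 39.2 ± 1.28 CPM per kb in SUM159 ALDHbr cells and 46.6 ± 1.57 in SW620 ALDHbr cells (SD, n = 3). STAT3, which responds to the interleukin-6 family, averaged 34.4 ± 2.02 and 20.7 ± 1.84 CPM per kb in the same groups. The third rank was shared. STAT2, the partner of IRF9 in the interferon response, averaged 5.37 ± 0.689 and STAT5B, which serves growth hormone, prolactin and interleukin-2, averaged 4.94 ± 0.0561 CPM per kb in SUM159 ALDHbr cells, within the spread of STAT2. In SW620 ALDHbr cells STAT5B (4.39 ± 0.0524) stood above STAT2 (3.22 ± 0.184). STAT5A, the close relative of STAT5B, averaged 0.349 ± 0.186 in SUM159 and 1.07 ± 0.161 in SW620. STAT4, best known from T cells and natural killer cells, was lowest, at 0.263 ± 0.0767 and 0.195 ± 0.0754 CPM per kb, and rested on 8 to 30 counts per library, so that its values carry a large counting error. In SUM159 the ranges of STAT4 and STAT5A overlapped.

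**Figure D1:**
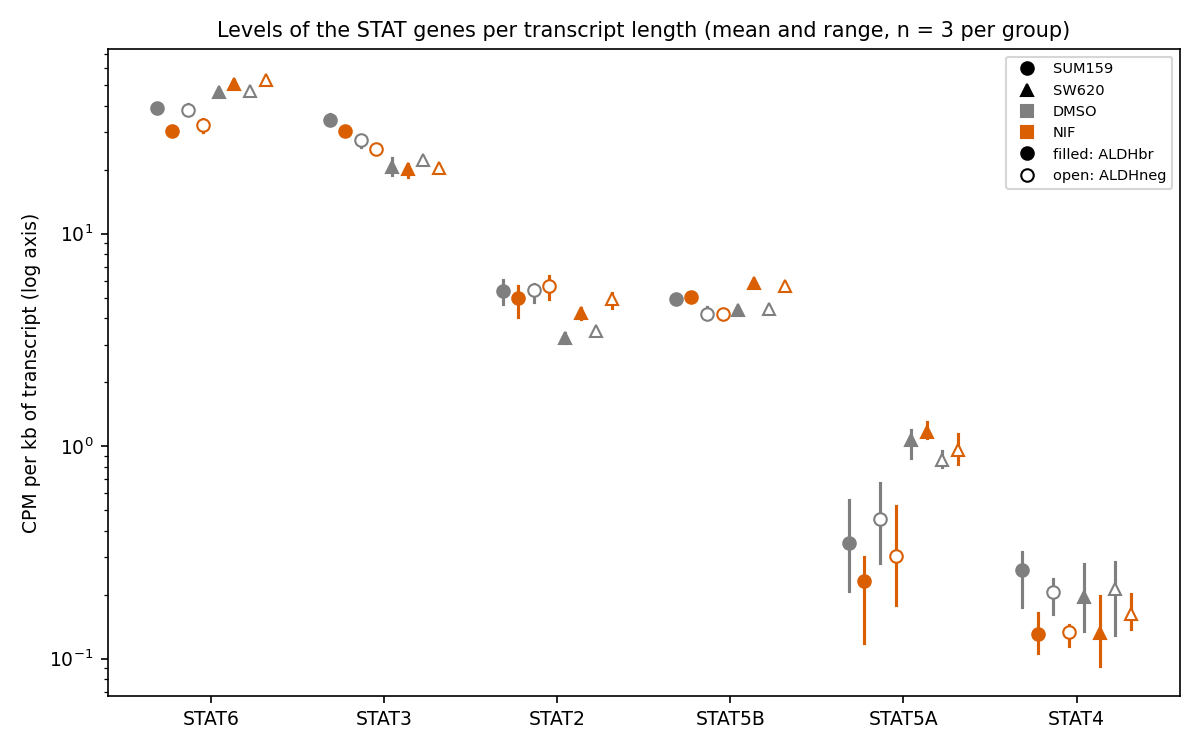
CPM per kb of transcript, on a log axis, of the 6 STAT genes in the 8 groups, with points at the mean and lines over the range of 3 libraries. STAT6 and STAT3 lie between 18.5 and 53.6 CPM per kb in every library, and STAT4 at or below 0.317.

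The balance of STAT6 to STAT3 differed between the lines and moved in opposite directions under NIF. The ratio of their levels per kb was 1.14 ± 0.0645 (SD, n = 3) in SUM159 ALDHbr cells under DMSO and 1.00 ± 0.0491 under NIF. In SW620 ALDHbr cells it was 2.26 ± 0.137 under DMSO and 2.51 ± 0.115 under NIF, and in SW620 ALDHneg cells 2.11 ± 0.0369 and 2.60 ± 0.108. The 3 NIF libraries lay below the DMSO libraries in SUM159 ALDHbr cells and above them in both SW620 fractions, while in SUM159 ALDHneg cells (1.39 ± 0.0874 and 1.30 ± 0.111) the ranges overlapped. With 3 libraries against 3, no exact test of such a ratio can pass 0.05, and none was made.

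The first question was whether NIF changed the RNA of the STAT genes in the breast cancer line. In SUM159 ALDHbr cells 1 of the 6 genes passed the test (edgeR quasi-likelihood, Benjamini-Hochberg adjusted p under 0.05 over all genes), STAT6, beside 3.16% of all 14953 genes tested. STAT6 stood at 171, 166 and 160 CPM (replicates 1 to 3) under DMSO and at 123, 132 and 131 CPM under NIF. Every NIF library lay below every DMSO library. STAT6 fell by 0.36 on the log2 scale (SE 0.064, adjusted p = 0.0053), to 0.777 of its DMSO level, and the call held in all 14 alternatives run. NAB2, which overlaps the gene, differed by -0.04 (adjusted p = 0.90).

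In SUM159 ALDHneg cells 0 of the 6 genes passed the same edgeR test, beside 3.30% of all genes. At an unadjusted p under 0.05 there were 2 (STAT3 and STAT6), beside 2510 of all 14953 genes, and DESeq2 called 1, beside 856 over all genes. STAT6 stood at 173, 154 and 157 CPM under DMSO and at 128, 145 and 138 under NIF, again with no overlap. The log2 difference was -0.24 (SE 0.064), and its adjusted p of 0.0527 missed the threshold. It passed in 8 of 14 alternatives, among them leaving out replicate 2 of the DMSO group (adjusted p = 0.035) or of the NIF group (adjusted p = 0.0497), and when the replicate number entered as a block (edgeR adjusted p = 0.0049).

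STAT3, which the drug is used to inhibit, was also lower in all 3 SUM159 pairs of either fraction, by less than STAT6. In ALDHbr cells it read 191, 169 and 180 CPM under DMSO and 161, 157 and 161 under NIF, and in ALDHneg cells 150, 133 and 152 against 133, 127 and 132. The log2 difference was -0.18 in ALDHbr cells (95% interval -0.31 to -0.04, adjusted p = 0.146). In ALDHneg cells it was -0.15 (interval -0.28 to -0.02, adjusted p = 0.238). Same-numbered SUM159 libraries deviated together, which pairs them, and under this replicate block STAT3 passed in both fractions (adjusted p = 0.0127 and 0.0375). With that block 2 of 6 genes, STAT3 and STAT6, were called in either fraction, beside 13.3% of all genes in ALDHbr cells and 13.2% in ALDHneg cells.

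The other 4 genes gave no call in SUM159 under NIF. STAT5B was steady, with log2 differences of 0.01 (interval -0.14 to 0.16) in ALDHbr and -0.02 (interval -0.17 to 0.13) in ALDHneg cells. STAT2 varied more between experiments, from 19.0 to 29.9 CPM over the 12 libraries, and differed by -0.12 and 0.07. In each fraction STAT4 read lower under NIF than under DMSO in all 3 pairs, at 9 to 17 counts against 14 to 30 in ALDHbr cells, with a fitted level of 0.500 of that under DMSO (SE 0.33 on the log2 scale, adjusted p = 0.125). STAT5A, on 18 to 96 counts, differed by -0.60 and -0.55, with intervals from -1.65 to 0.45 in ALDHbr and from -1.54 to 0.44 in ALDHneg cells. It was lower under NIF in each of the 3 pairs of either fraction, and with the replicate block its SE fell from 0.49 to 0.29 and from 0.47 to 0.27, still without a call (adjusted p = 0.207 and 0.134).

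**Figure D2:**
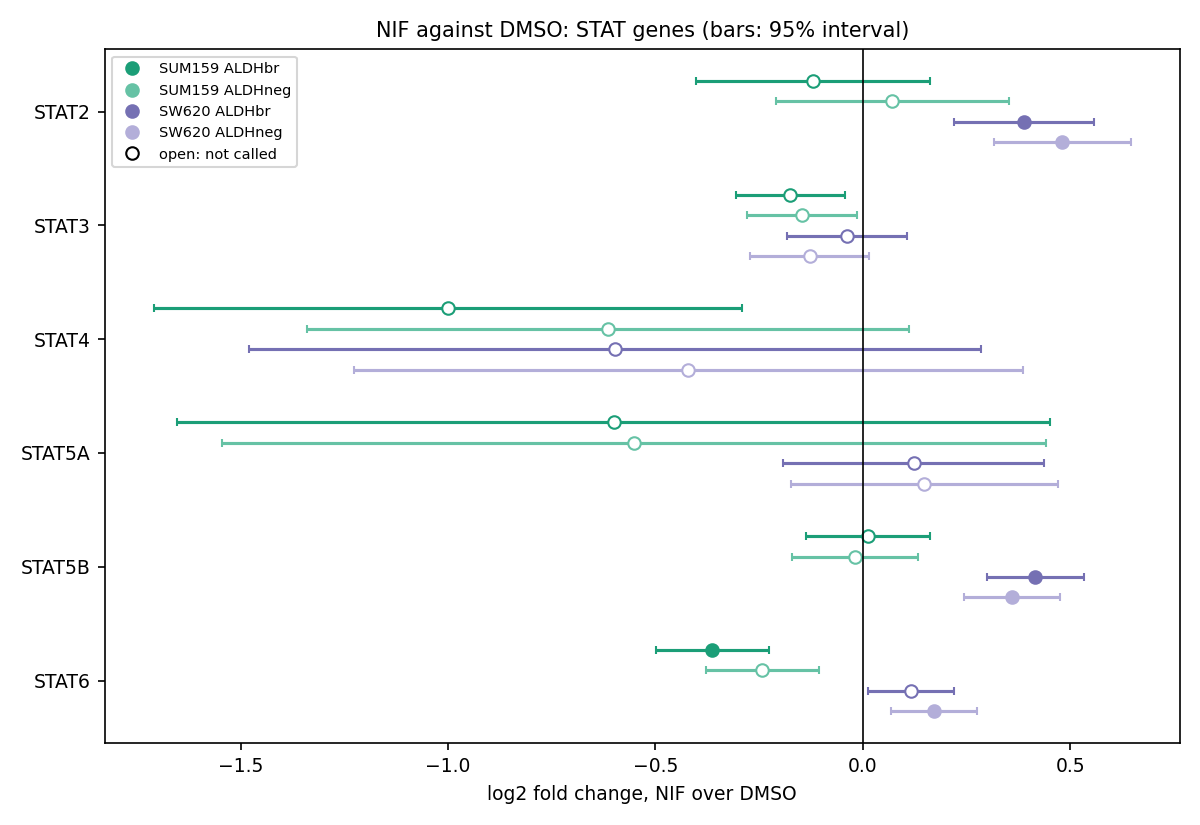
Log2 fold change of NIF over DMSO for each STAT gene in the 4 sorted populations, with 95% intervals from edgeR, filled where the adjusted p passed 0.05. STAT5B and STAT2 lie at 0.36 to 0.48 in SW620 and near 0 in SUM159, STAT6 lies on opposite sides of 0 in the lines, and the intervals of STAT4 and STAT5A are wide.

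In the colon cancer line the members called under the same treatment were all higher. In SW620 ALDHbr cells 2 of 6 genes were called, STAT5B and STAT2, and in ALDHneg cells 3 of 6, these and STAT6. The background was high, since 43.3% of 13953 genes were called in ALDHbr and 45.1% in ALDHneg cells, so that 2 or 3 of 6 is close to the share of all genes.

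STAT5B gave the clearest rise. In ALDHbr cells it stood at 21.3, 20.7 and 21.0 CPM under DMSO and at 27.4, 28.9 and 27.7 under NIF, a log2 change of 0.42 (SE 0.055, adjusted p = 2.99e-05). In ALDHneg cells it rose from 21.6, 21.2 and 20.5 to 27.5, 26.3 and 27.4 CPM, a log2 change of 0.36 (SE 0.054, adjusted p = 9.23e-05). The groups were far apart in both fractions, and both calls held in all 14 alternatives.

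STAT2 rose by 0.39 on the log2 scale in ALDHbr cells (SE 0.079, adjusted p = 0.0012), from 14.2, 13.1 and 12.7 CPM to 17.5, 18.5 and 16.4. In ALDHneg cells it rose by 0.48 (SE 0.077, adjusted p = 1.58e-04), from 14.2, 14.3 and 15.0 CPM to 21.6, 18.4 and 20.8. No NIF library overlapped the DMSO libraries, and both calls held in all 14 alternatives. 

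STAT6 was higher by 0.17 in SW620 ALDHneg cells (SE 0.048, adjusted p = 0.0095), at 175, 171 and 176 CPM under DMSO and 192, 199 and 198 under NIF. In ALDHbr cells the difference of 0.12 missed the threshold (adjusted p = 0.068), with 167, 177 and 177 CPM against 197, 187 and 180. It passed there without replicate 2 of the DMSO group (0.14, adjusted p = 0.0311), without replicate 3 of the NIF group (0.15, adjusted p = 0.0365) and with DESeq2 (adjusted p = 0.0398). With plain library-size scaling the ALDHneg call was lost (0.11, adjusted p = 0.0878). NAB2 rose in both fractions, by 0.70 and 0.72, and its part in the STAT6 counts was not tested.

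STAT3 itself was not called in SW620. In ALDHbr cells the groups overlapped, at 87.7, 104 and 95.1 CPM under DMSO and 97.6, 96.8 and 85.2 under NIF, and the log2 difference was -0.04 (interval -0.18 to 0.11). In ALDHneg cells all NIF libraries (95.8, 91.5 and 94.5 CPM) lay below the DMSO libraries (103, 103 and 102), and the difference of -0.13 (interval -0.27 to 0.02) gave an adjusted p of 0.138, or 0.0079 when only these 2 groups were fitted. STAT4 differed by -0.60 and -0.42 and STAT5A by 0.12 and 0.15, with no call.

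The difference between the lines in their response to NIF was tested directly in a fit of all 24 libraries. In ALDHbr cells 3 of 6 genes responded differently, beside 23.1% of 16271 genes. The change in SW620 minus that in SUM159 was 0.51 for STAT2 (SE 0.16, adjusted p = 0.0269), 0.40 for STAT5B (SE 0.085, adjusted p = 0.0012) and 0.48 for STAT6 (SE 0.082, adjusted p = 1.26e-04). In ALDHneg cells 2 of 6 did, beside 22.4% of genes, STAT5B at 0.39 (adjusted p = 0.0017) and STAT6 at 0.42 (adjusted p = 4.19e-04). STAT5B and STAT6 kept these calls in all 19 alternatives in each fraction. STAT2 lost its ALDHbr call in 8 of 19 (adjusted p from 0.0501 to 0.0982). Those 8 were library-size scaling, a fit of only the groups compared, and leaving out SUM159 ALDHbr NIF replicate 2 (0.40) or DMSO replicate 1 (0.52) or 3 (0.42), or SW620 ALDHbr NIF replicate 1 (0.50) or 2 (0.47) or DMSO replicate 3 (0.47). Its ALDHneg difference of 0.42 had an adjusted p of 0.0675, or 0.0034 with the replicate block. For STAT3 the lines' responses differed by 0.14 (interval -0.05 to 0.33) in ALDHbr and 0.03 (interval -0.16 to 0.22) in ALDHneg cells.

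The steps before and after the STAT proteins were read from gene lists, each described by its counts and its median beside all genes. In SUM159 few list members passed the test. Of 22 measured receptors and ligands, 1 was lower in ALDHbr and 2 in ALDHneg cells, among them IFNGR1, a chain of the interferon-gamma receptor (-0.33, adjusted p = 0.0387, and -0.34, adjusted p = 0.0330). With the replicate block these counts became 7 and 8. IL6ST, the shared signal chain of the interleukin-6 family, was then called lower in both fractions. It stood at -0.32 in ALDHbr cells (adjusted p = 6.21e-04, or 0.0961 without the block) and at -0.24 in ALDHneg cells (adjusted p = 0.0067, or 0.196 without the block). Of 17 brakes, 1 was lower in each fraction, SOCS5 (-0.37, adjusted p = 0.0209, and -0.33, adjusted p = 0.0340). With the block 2 brakes were higher and 1 lower in ALDHbr cells, and 3 higher and 2 lower in ALDHneg cells. SOCS3, the brake that STAT3 induces, was among the higher ones (0.24, adjusted p = 0.0192, and 0.22, adjusted p = 0.0274), against adjusted p = 0.105 and 0.134 without the block. The kinases JAK1, JAK2 and TYK2 stood at -0.08, -0.16 and 0.09 in ALDHbr cells and at -0.08, -0.08 and 0.07 in ALDHneg cells. edgeR called 0 of these 3 in either fraction, with 0 at an unadjusted p under 0.05 and 0 by DESeq2, and JAK3 did not pass the filter on low counts. Of all 14953 genes, 2503 in ALDHbr and 2510 in ALDHneg cells had an unadjusted p under 0.05. Over all genes DESeq2 called 863 and 856. Of 22 measured genes listed as STAT3 targets, 1 was lower in each fraction, and the list median was 0.00 in ALDHbr and -0.11 in ALDHneg cells, beside medians of -0.00 and 0.00 over all genes. In both fractions that gene was NNMT, a methyltransferase of nicotinamide (-0.53, adjusted p = 0.0067, in ALDHbr and -0.52, adjusted p = 0.0080, in ALDHneg cells). With the block the STAT3 targets gave 2 higher and 5 lower in ALDHbr cells and 3 higher and 5 lower in ALDHneg cells. Of the partners, interferon targets, STAT5 targets and STAT6 targets (5, 17, 9 and 4 measured), edgeR called 0 in ALDHbr cells, with 0, 1, 1 and 1 at an unadjusted p under 0.05 and 0, 0, 1 and 1 by DESeq2. In ALDHneg cells 1 of these genes was called, the interferon target BST2, a membrane protein that tethers viruses, which fell by 0.25 (adjusted p = 0.0431).

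In SW620 much of the pathway moved, on the high background given above. IL6R, the interleukin-6 receptor, stood at 3.29 to 3.85 CPM under DMSO and at 25.9 to 32.6 under NIF in ALDHbr cells, a log2 change of 2.97 (SE 0.10, adjusted p = 4.72e-11). In ALDHneg cells the change was 3.74 (SE 0.11, adjusted p = 1.11e-11). Of 20 measured receptors and ligands, 10 were higher and 4 lower in ALDHbr cells, and 10 higher and 3 lower in ALDHneg cells. Among the kinases JAK2 rose by 0.76 (adjusted p = 1.42e-04) and JAK1 by 0.24 (adjusted p = 0.0284) in ALDHbr cells, while TYK2 was level at -0.00 (SE 0.060, adjusted p = 0.97). The ALDHneg values were 0.81 for JAK2 (adjusted p = 5.45e-05), 0.27 for JAK1 (adjusted p = 0.0138) and 0.03 for TYK2 (adjusted p = 0.69). SOCS3 rose by 2.23 (SE 0.16, adjusted p = 1.01e-07), from 0.521 to 0.894 CPM under DMSO to 3.29 to 3.77 under NIF, and in ALDHneg cells by 2.32 (adjusted p = 8.52e-09). Of 17 brakes, 6 were higher and 1 lower in each fraction. The lower one in both was PIAS3, an inhibitor of STAT3 (-0.29, adjusted p = 0.0012, in ALDHbr and -0.40, adjusted p = 5.77e-05, in ALDHneg cells). Of 5 partners, IRF9 was higher and NMI lower (-0.31, adjusted p = 0.0050) in ALDHbr cells. In ALDHneg cells IRF9 was higher and NMI gave no call (-0.19, adjusted p = 0.0563).

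The target lists of SW620 leaned to higher values under NIF. Of 22 measured STAT3 targets, 13 were higher and 4 lower in ALDHbr cells, with a median of 0.42, and 13 were higher and 3 lower in ALDHneg cells, with a median of 0.55, beside medians of -0.01 over all genes in both. SERPINA3, a protease inhibitor of the acute phase, rose by 2.27 in ALDHbr cells (adjusted p = 1.06e-07), and MUC1, a membrane mucin, fell by 1.45 (adjusted p = 1.12e-05). Of 18 interferon targets, the genes that STAT2 serves with IRF9, 12 were higher and 2 lower in ALDHbr cells (median 0.36), and 10 higher and 1 lower in ALDHneg cells (median 0.43). IFIT1, an interferon-induced antiviral gene, rose by 1.05 in ALDHbr cells (adjusted p = 1.07e-07), BST2 fell by 0.32 (adjusted p = 0.0168), and IRF9, the DNA-binding partner of STAT2, rose by 0.34 (adjusted p = 0.0060). In ALDHneg cells IFIT1 rose by 0.40 (adjusted p = 4.84e-04) and IRF9 by 0.50 (adjusted p = 1.66e-04), and BST2 gave no call (-0.22, adjusted p = 0.0888). Of 8 STAT5 targets, 4 were higher and 1 lower in ALDHbr cells, led by the kinase gene PIM1 (1.29, adjusted p = 9.83e-10) and with BCL6 lower (-0.44, adjusted p = 0.0028). In ALDHneg cells 5 were higher and 1 lower. Of 4 measured STAT6 targets, 1 was higher in ALDHbr cells, IL4R, the interleukin-4 receptor (0.32, adjusted p = 0.0011). In ALDHneg cells 2 were higher, IL4R among them (0.19, adjusted p = 0.0282). Of 10 colon epithelial markers, 5 were lower and 1 higher under NIF in ALDHbr cells (median -0.43), and their part in these results was not tested. Some genes stand on more than 1 list, and the lists were written from general knowledge, not from these cells.

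**Figure D3:**
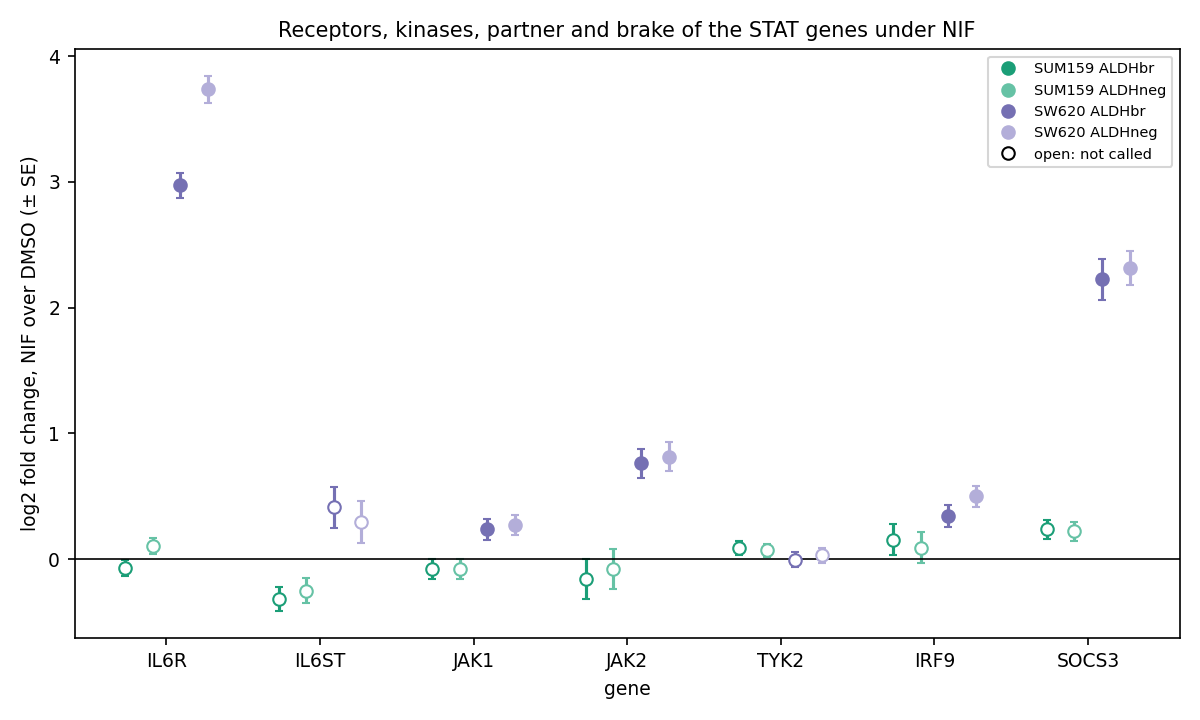
Log2 fold change of NIF over DMSO, with its SE, for receptors (IL6R, IL6ST), kinases (JAK1, JAK2, TYK2), the STAT2 partner IRF9 and the brake SOCS3 in the 4 sorted populations, filled where the adjusted p passed 0.05. IL6R and SOCS3 lie above 2 in SW620 and between -0.07 and 0.24 in SUM159.

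The second question was whether the STAT genes differed between the ALDHbr and ALDHneg cells of a line. In SUM159 under DMSO 2 of 6 genes were called, beside 23.0% of all genes, and both were higher in ALDHbr cells. STAT3 (values above) was higher by 0.31 on the log2 scale (SE 0.062, adjusted p = 0.0017), with no overlap between the fractions. STAT5B, at 26.8, 26.4 and 27.0 CPM in ALDHbr and 22.2, 21.6 and 24.5 in ALDHneg cells, was higher by 0.23 (SE 0.071, adjusted p = 0.029). Under NIF the same 2 of 6 genes were called, beside 21.9% of all genes, STAT3 at 0.29 (SE 0.062, adjusted p = 0.0035) and STAT5B at 0.26 (SE 0.071, adjusted p = 0.0148). The NIF libraries of STAT5B read 26.5, 28.0 and 26.5 CPM in ALDHbr and 21.5, 23.8 and 22.3 in ALDHneg cells, without overlap.

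The STAT3 difference held in all 14 alternatives under DMSO and under NIF. The STAT5B call under DMSO was lost in 8 of 14, with library-size scaling, with no filter, with only the 2 groups in the fit, and without any 1 of the 3 ALDHbr replicates (adjusted p = 0.0739, 0.0524 and 0.0840) or without ALDHneg replicate 1 or 2 (0.0951 and 0.0827), at log2 values from 0.20 to 0.24. Under NIF it was lost without ALDHneg replicate 1 (0.23, adjusted p = 0.0755). With the replicate block 2 of 6 genes were called under DMSO, beside 36.0% of all genes, and 3 of 6 under NIF, beside 35.2%, since STAT2 was then lower in ALDHbr cells (-0.20, adjusted p = 0.0176, or 0.311 without the block). STAT6 differed by 0.03 (interval -0.10 to 0.17) under DMSO and by -0.09 (interval -0.22 to 0.05) under NIF. Of 9 measured mesenchymal markers, 6 were lower in SUM159 ALDHbr than in ALDHneg cells under either treatment (median -0.43 under DMSO), and their part in the STAT3 and STAT5B differences was not tested.

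In SW620 0 of 6 genes were called between the fractions, beside 11.3% of all genes under DMSO and 6.67% under NIF. At an unadjusted p under 0.05 edgeR gave 0 of the 6 genes under DMSO and 1 under NIF, beside 4423 and 2942 of all 13953 genes. DESeq2 called 0 of the 6 under each, beside 2146 and 1151 over all genes. STAT5B and STAT6 were level under DMSO, at -0.01 (interval -0.12 to 0.11) and -0.00 (interval -0.11 to 0.10). Without ALDHbr DMSO replicate 2, the library with the highest STAT3 (104 CPM) and the lowest STAT5A (3.12 CPM) of its group, STAT3 was lower in ALDHbr cells (-0.18, adjusted p = 0.0337) and STAT5A higher (0.41, adjusted p = 0.0365), against -0.10 and 0.31 with it. Although STAT2 gave no call (-0.12, interval -0.29 to 0.05), 15 of 18 interferon targets were lower in SW620 ALDHbr than in ALDHneg cells under DMSO, with a list median of -0.54 beside 0.01 over all genes. IRF9 was lower by 0.70 (adjusted p = 1.53e-04). The count was 13 to 15 over the alternatives run.

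**Figure D4:**
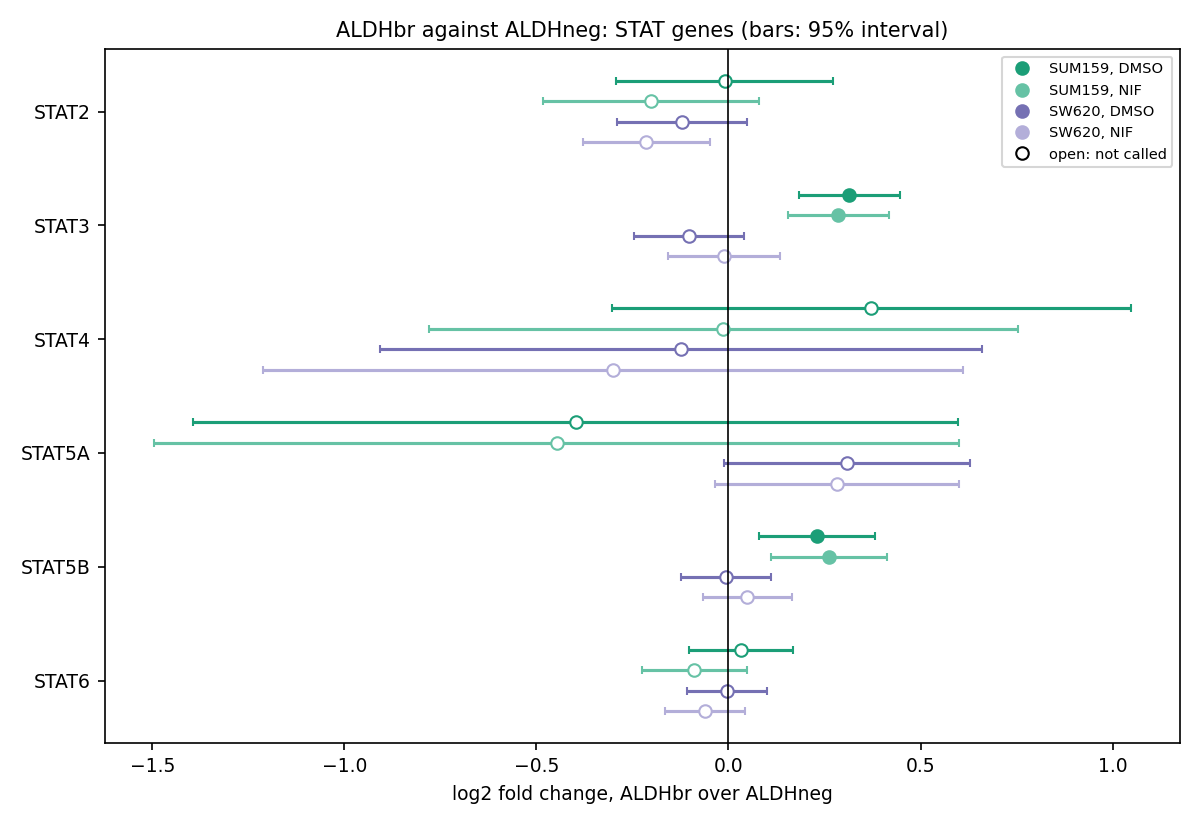
Log2 fold change of ALDHbr over ALDHneg for each STAT gene in each line under DMSO and under NIF, with 95% intervals from edgeR, filled where the adjusted p passed 0.05. STAT3 and STAT5B lie at 0.23 to 0.31 in SUM159, and every SW620 interval but that of STAT2 under NIF includes 0.

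The response to NIF was then compared between ALDHbr and ALDHneg cells of a line by an interaction term. For the STAT genes 0 of 6 passed in either line with edgeR, 0 at an unadjusted p under 0.05, and 0 with DESeq2. Over all genes edgeR called 0 in SUM159 (0.00%) and 1 in SW620 (0.00717%), against 238 and 771 at an unadjusted p under 0.05 and 2 and 28 with DESeq2. For STAT6 in SUM159 the difference between the fractions' responses was -0.12 (interval -0.31 to 0.07), and for STAT3 it was -0.03 (interval -0.21 to 0.16). In SW620 the difference was 0.06 for STAT5B (interval -0.11 to 0.22) and -0.09 for STAT2 (interval -0.33 to 0.14).

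The lines themselves were compared under DMSO in the fit of all libraries. In ALDHbr cells 5 of 6 genes differed, beside 81.3% of all genes, and in ALDHneg cells 4 of 6, beside 81.2%. STAT3 was higher in SUM159 by 0.73 in ALDHbr (SE 0.065, adjusted p = 2.24e-10) and by 0.32 in ALDHneg cells (adjusted p = 9.97e-05), and STAT2 by 0.74 and 0.63. STAT5A was lower in SUM159, by 1.62 in ALDHbr (adjusted p = 1.70e-04) and by 0.91 in ALDHneg cells (adjusted p = 0.0163). The ALDHneg call of STAT5A was lost without SUM159 ALDHneg DMSO replicate 2 (-0.68, adjusted p = 0.0837) or 3 (-0.82, adjusted p = 0.0577). STAT6 was lower by 0.25 and 0.29, and STAT5B was higher by 0.17 in ALDHbr cells (adjusted p = 0.0127) and differed by -0.07 in ALDHneg cells (adjusted p = 0.313). Scaling by library size moved the median of all genes from 0.05 to 0.20 in ALDHbr and from 0.07 to 0.24 in ALDHneg cells. Under it the STAT6 calls were lost (-0.10 and -0.12), as was that of STAT5A in ALDHneg cells (-0.73), and STAT5B and STAT4 in ALDHneg cells turned from -0.07 and -0.08 to 0.10 and 0.09.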

How the data were processed

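RNA-seq of total RNA (Illumina Stranded Total RNA Prep) covered 24 libraries of 2 cell lines, 8 groups of 3. The authors deposited a table of raw counts with 28307 genes (symbol and Entrez number), 4579 of them at 0 in every library. The submitters' processing notes name FastQC, STAR and GRCh38, with no version or role; the counting tool and annotation are not given in the sources used here. Groups came from the sample labels. Columns of other samples numbered 0.

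Tests used edgeR 4.0.16 in R 4.3.3: filterByExpr by group, TMM, quasi-likelihood F test, Benjamini-Hochberg over all genes, threshold 0.05. Each line was fitted apart (12 libraries), and comparisons between lines used 1 fit of 24. The 6 STAT genes all passed the filter in both lines. Intervals are 95% and come from the fit. CPM uses TMM-adjusted library sizes within a line, or over all libraries for levels per kb and for genes other than the STAT genes; lengths are those of the MANE Select transcripts in GENCODE. Alternatives were scaling by library size or by RLE, dropping the filter, at least 10 counts in every library (which drops STAT4), DESeq2 1.42.0, only the groups compared, all libraries in 1 fit, a replicate block and each replicate left out. A fit with a library left out assumes that the remaining 2 of its group vary like the other groups. For the pathway lists the same alternatives were added after the data had been seen.

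The members, lists and comparisons were chosen with earlier results of these data known. Named besides the 6 genes are the kinases, IL6R, IL6ST, SOCS3, IRF9, ALDH1A1 and, from each list, the called genes with the highest and lowest change in ALDHbr cells of each line (mean log2 CPM of at least 1). NAB2, ALDH1A3 and the marker genes were named after their values were seen.

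Same-numbered libraries deviated together from their group means in SUM159 (r 0.262 to 0.683, over 0.1 in 18 of 18 pairs), which was taken as pairing, but not in SW620 (over 0.1 in 4 of 18 pairs). Replicates differed by more than sampling noise (chi-square per gene 1.95 to 43.1 over 24 pairs). The fit was also run on simulated counts with the same dispersion for every gene and no shared deviation of same-numbered libraries. That setting differs from the SUM159 data, so the run does not test the fit under such deviations. Promoter windows and loci are from RefSeq, GRCh38.p14, and all 6 genes matched by Entrez number.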

Additional observations from a re-analysis of the deposited data

Results flagged for a closer look

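Among these genes, 5 responses to NIF differed between the lines by a direct test of the difference (edgeR, all 24 libraries). In ALDHbr cells the log2 change in SW620 minus that in SUM159 was 0.506 for STAT2 (adjusted p = 0.0269), 0.402 for STAT5B (adjusted p = 0.0012) and 0.477 for STAT6 (adjusted p = 1.26e-04). In ALDHneg cells it was 0.386 for STAT5B (adjusted p = 0.0017) and 0.422 for STAT6 (adjusted p = 4.19e-04). The STAT2 call held in only 11 of 19 alternatives, while those of STAT5B and STAT6 held in 19 of 19 in each fraction. STAT6 was lower under NIF in 3 of 3 SUM159 pairs of each fraction. As 23.1% and 22.4% of all genes also differed between the lines in this test, the counts of 3 and 2 of 6 are to be read beside that background. The lines also differ in tissue of origin, and the cause was not tested.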

How the results depend on the processing

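Of 84 values (6 genes in 14 comparisons), 24 were called. Of these 24, 17 were called in every alternative, and 0 changed sign in any alternative. Of the 60 not called, 50 were never called and 20 changed sign in some alternative; the cause was not tested. STAT4 has no value where at least 10 counts in every library were required. The number of STAT genes called moved, among others, as follows. For NIF in SUM159 ALDHbr cells it was 1, or 2 with the replicate block. For NIF in SUM159 ALDHneg cells it was 0, but 1 with library-size scaling, no filter, at least 10 counts, DESeq2 or all 24 libraries, 2 with the replicate block, and 0 to 1 with a replicate left out. Between SUM159 fractions under DMSO it was 2, but 1 with library-size scaling, no filter or only the groups compared, and 1 to 2 with a replicate left out. With a replicate left out it was 1 to 2 between SUM159 fractions under NIF and 0 to 2 between SW620 fractions under DMSO. Between the lines in ALDHneg cells it was 4, or 2 with library-size scaling. For NIF in SW620 ALDHbr cells it was 2, but 3 with DESeq2 and 2 to 3 with a replicate left out, and in ALDHneg cells 3, but 2 with library-size scaling and 4 with only the groups compared. For the difference in response it was 3 in ALDHbr cells, but 2 with library-size scaling or only the groups compared and 2 to 3 with a replicate left out, and in ALDHneg cells 2, but 3 with the block or only the groups compared and 2 to 3 with a replicate left out. The SW620 numbers do not pair the samples, and the block left SW620 counts at 2 and 3 called STAT genes for NIF in ALDHbr and ALDHneg cells.

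Library-size scaling turned STAT3 between SW620 fractions under NIF to 0.0041, STAT5A in the SW620 interaction to 0.0060, STAT4 and STAT5B between lines in ALDHneg cells to 0.087 and 0.10, and the STAT3 difference in response in ALDHneg cells to -0.037. The block turned the SUM159 interaction of STAT5A to 0.047. Library-size scaling moved the share of higher among called genes from 49.5% to 39.4% for NIF in SW620 ALDHneg cells, from 51.1% to 61.4% between SW620 fractions under NIF, and from 53.3% to 40.9% for the difference in response in ALDHneg cells.

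The following values changed sign when 1 replicate was left out. For NIF in SUM159, STAT2 ranged from -0.23 to 0.0085 in ALDHbr and from -0.017 to 0.17 in ALDHneg cells, and STAT5B from -0.0086 to 0.027 and from -0.057 to 0.039. For NIF in SW620 ALDHbr cells STAT3 ranged from -0.096 to 0.044. Between fractions under DMSO, STAT2 in SUM159 ranged from -0.10 to 0.084, and in SW620 STAT4 from -0.50 to 0.13 and STAT6 from -0.031 to 0.022. Under NIF, STAT4 and STAT5A in SUM159 ranged from -0.20 to 0.11 and from -0.71 to 0.21, and STAT3 in SW620 from -0.059 to 0.049. The interaction in SUM159 ranged from -0.069 to 0.033 for STAT3, from -0.43 to 0.61 for STAT5A and from -0.026 to 0.072 for STAT5B, and in SW620 from -0.57 to 0.20 for STAT4 and from -0.14 to 0.12 for STAT5A. Between lines in ALDHneg cells STAT4 ranged from -0.33 to 0.18, and the difference in response there from -0.0062 to 0.080 for STAT3 and from -0.039 to 0.47 for STAT4. STAT4 rests on few counts, which limits its precision.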

Other observations

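The genes whose pattern was most like that of each STAT gene were found over the 24 libraries, by Pearson's r of log2 CPM after the mean of the cell line was subtracted, among 16271 genes. All points share libraries, depth and treatment, so r is a description only. For STAT6 they were NFE2L2 (0.90), the transcription factor of the oxidative stress response, SIM2 (0.89) and HS6ST3 (0.88). For STAT3 they were SLC44A1 (0.94), a choline transporter, RBL2 (0.92), a relative of the retinoblastoma protein, and FKBP5 (0.92), a chaperone partner induced by glucocorticoids. For STAT5B they were STK17A (0.95), CSTA (0.95) and FLYWCH1 (0.94), and for STAT2 CLIC4 (0.89), IGFL4 (0.87) and KIF21B (0.87). STAT5A went most with EGOT (0.88), LOC105376526 (0.88) and GRIN1 (0.85). STAT4, on few counts, reached 0.75 with TMEM231, 0.72 with FAM227A and 0.71 with BST2.

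The 6 STAT genes were little alike among themselves by the same measure. The highest r was 0.47, between STAT2 and STAT5B, and STAT3 ranged from -0.11 with STAT2 to 0.27 with STAT4.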
